A study of Mus musculus with 10 samples.

Results

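The 10 NRF2 antioxidant response genes are Nfe2l2, which encodes the transcription factor NRF2, Keap1, which encodes its inhibitor, and 8 target genes, Nqo1, Hmox1, Gclc, Gclm, Txnrd1, Srxn1, Slc7a11 and Gsr. They were chosen by gene symbol as a textbook set, with earlier results of these data known. All 10 were among the 24454 genes of the count table and among the 15543 that passed the filter on low counts. Expression was measured by RNA-Seq in treated, non-tumoral, full-thickness back skin of C57BL/6 mice, 5 libraries from wild type (WT) animals and 5 from Zfp36ΔARE littermates. Zfp36ΔARE mice carry a whole-body knockin in which the endogenous Zfp36 gene lacks the AU-rich instability element of its own 3′-untranslated region. Zfp36 encodes tristetraprolin (TTP), a protein that binds AU-rich elements in mRNAs and promotes their decay. Both groups entered the protocol at 7 weeks of age, and both received 1 application of 400 nmol of the mutagen DMBA and then repeated applications of 10 nmol of the phorbol ester TPA for 20 weeks, so every library comes from treated skin and no untreated skin was analysed here. Because the knockin is in all cells, no value below belongs to a single cell type, and in these bulk samples fewer cells of a type and less RNA per cell cannot be told apart. The labels do not say whether each library came from a different animal, so p-values measure the spread between these libraries.

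NRF2 is held low under basal conditions by KEAP1, an adaptor that presents it to a CUL3 ubiquitin ligase. Oxidants and electrophiles modify KEAP1, and NRF2 then accumulates, pairs with small MAF proteins and binds antioxidant response elements upstream of genes for glutathione and thioredoxin metabolism, quinone reduction and heme breakdown. In skin this program is known for protecting keratinocytes against chemical carcinogens. The abbreviation ARE is used both for the antioxidant response element, a DNA sequence, and for the AU-rich element, an mRNA sequence, which is the one missing in Zfp36ΔARE mice. Both are spelled out here.

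The promoters are shown because 6 of the target genes were higher and 1 was lower in Zfp36ΔARE skin. RefSeq promoter windows on GRCm38.p6, from 250 bases before to 50 bases after the start of transcription, were matched for 7 of the 10 genes, and Hmox1, Gclc and Gsr were not matched. The antioxidant response element core was searched on both strands as TGACNNNGC, and the AP-1 site, bound by the FOS and JUN proteins that phorbol esters activate, as TGACTCA. The core was present in at least 1 window of 4 of the 7 matched genes (Nfe2l2, Gclm, Txnrd1 and Srxn1), which is 4 of their 9 windows, since Txnrd1 has 3 start sites, and in 12.4% of all 32851 windows of that length. The AP-1 site was present in 1 of the 9 windows (Srxn1, where it occurs 2 times), and in 5.2% of all windows. The 250 bases before the start are printed 5′ to 3′ on the strand of the gene, with core and AP-1 matches in capitals, for Gclm (chr3:122245307-122245556, plus strand), for the second of 3 Txnrd1 start sites (chr10:82858956-82859205, plus strand) and for Srxn1 (chr2:152105274-152105523, plus strand), which were higher in Zfp36ΔARE skin, and for Nqo1 (chr8:107403206-107403455, minus strand), which was lower and has neither match in its window.
Gclm: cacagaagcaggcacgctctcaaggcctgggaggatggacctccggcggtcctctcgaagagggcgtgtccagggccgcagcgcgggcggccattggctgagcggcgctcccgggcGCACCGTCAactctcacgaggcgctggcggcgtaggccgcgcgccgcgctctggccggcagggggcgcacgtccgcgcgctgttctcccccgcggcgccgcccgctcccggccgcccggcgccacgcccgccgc
Txnrd1: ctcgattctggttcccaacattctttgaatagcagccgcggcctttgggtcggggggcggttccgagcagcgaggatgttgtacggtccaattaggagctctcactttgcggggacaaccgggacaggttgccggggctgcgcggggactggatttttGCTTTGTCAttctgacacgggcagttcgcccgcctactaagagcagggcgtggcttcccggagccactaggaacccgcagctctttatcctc
Srxn1: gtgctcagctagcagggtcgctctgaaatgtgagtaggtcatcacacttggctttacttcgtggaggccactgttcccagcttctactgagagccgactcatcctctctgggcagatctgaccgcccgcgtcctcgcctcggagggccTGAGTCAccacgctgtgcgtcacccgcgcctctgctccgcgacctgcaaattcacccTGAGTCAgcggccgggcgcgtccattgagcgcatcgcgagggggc
Nqo1: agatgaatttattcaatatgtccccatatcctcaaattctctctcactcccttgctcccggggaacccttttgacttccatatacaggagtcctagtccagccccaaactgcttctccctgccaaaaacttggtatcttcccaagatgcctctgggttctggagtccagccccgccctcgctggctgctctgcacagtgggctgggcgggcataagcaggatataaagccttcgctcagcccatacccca

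In Gclm and Txnrd1 the core lies on the strand opposite to the gene and begins 134 and 92 bases before the start. Both capitalised stretches of Srxn1 are matches to the AP-1 site, which begin 102 and 45 bases before the start. Its match to the antioxidant response element core, in the letters searched, lies 29 bases into the transcribed region, again on the opposite strand. Other forms of the antioxidant response element were not searched, so these stretches may hold one. Nfe2l2 itself has a core 240 bases before its start, at chr2:75704895-75704903. The other matched genes, Keap1 and Slc7a11, have neither match in the window. Slc7a11 was nonetheless higher, with the largest log2 fold change of the set, while Nfe2l2, which has a core, did not pass the test. For Keap1, Slc7a11 and Nqo1, a missing match says only that these letters are absent in this window. Whether a match goes with the direction of change was not tested. The 2 short sites are shown with flanking bases on the strand of the gene and the core in capitals.
Nfe2l2: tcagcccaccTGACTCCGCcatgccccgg
Srxn1: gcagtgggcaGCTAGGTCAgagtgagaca

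The second kind of sequence that bears on the genotype is the AU-rich element in the 3′-untranslated region. In the GENCODE annotation of GRCm38 (mm10), the ATTTA pentamer was present in the 3′-untranslated region of 9 of the 10 genes, all but Keap1, and in 63.2% of 20896 annotated genes. The longer TATTTAT heptamer, which includes the pentamer, was present in 4 of the 10, Nfe2l2, Gclm, Txnrd1 and Gsr, and in 26.3% of genes. Long 3′-untranslated regions hold these motifs more often: among genes of similar length to each of the 10, the share with a pentamer ran from 48.4% for Nfe2l2 to 99.7% for Slc7a11. The share with a heptamer was 11.7% for genes like Nfe2l2, 21.1% for Gsr, 37.0% for Txnrd1, 63.0% for Gclm and 80.0% for Slc7a11. Slc7a11 held 11 pentamers in 7364 bases and no heptamer, against a median of 14 pentamers in the 325 genes with a 3′-untranslated region of similar length. Txnrd1 held 2 overlapping heptamers in 1667 bases. The heptamers of the 4 genes are shown in capitals on the strand of the gene, because such sites are the class of sequence that TTP binds, and whether TTP binds these was not measured.
Nfe2l2: acagaactTATTTATactgttct
Gclm: ccaatgttTATTTATgtgtctaa
Txnrd1, first: ttcagtttTATTTATttattttt
Txnrd1, second: gttttattTATTTATtttttaag
Gsr: tttgataaTATTTATaattaata
These sites lie at chr2:75675703-75675709, chr3:122270365-122270371, chr10:82897457-82897463, chr10:82897461-82897467 and chr8:33697502-33697508. Of the 4 genes with a heptamer, 3 were higher in Zfp36ΔARE skin and 1, Nfe2l2, did not pass the test. The Gclm site begins at base 3968 of an annotated 3′-untranslated region of 4335 bases. That region is longer than the 2072 bases given for Gclm in the count table, so the counts may not cover this site. Gclc, Srxn1 and Slc7a11, which have no heptamer, were also higher, as were 15.3% of all tested genes. The gene that was lower, Nqo1, held 1 pentamer and no heptamer. Whether these motifs go with the direction of change was not tested.

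Depth overlapped between the groups, at 21638400 to 32583217 counts per WT library and 19595035 to 36419573 per Zfp36ΔARE library. The targeted gene Zfp36 had 2152 ± 277 normalized counts in WT and 5427 ± 766 in Zfp36ΔARE skin (SD, n = 5 each), with no overlap, a log2 fold change of 1.33 (SE 0.12, adjusted p = 0.0019, where SE is the model's error of the log2 fold change). The skin itself differed between the groups. Hair shaft transcripts, 9 genes of the hair fiber, summed to between 1966 and 98217 normalized counts in WT and between 151158 and 451979 in Zfp36ΔARE skin, with WT replicates 3 and 1 lowest. All 9 were higher in every Zfp36ΔARE library than in any WT library, with a median log2 fold change of 2.30, although 1 of the 9 passed the test. Of 14 macrophage markers 12 were lower, and their sum was 27350 to 54090 in WT and 11917 to 18501 in Zfp36ΔARE skin, with none at 0 in every library. Of 12 skeletal muscle markers 11 were lower (sums of 263312 to 1305000 against 149574 to 335210), and of 10 adipocyte markers 8 were lower (75850 to 201397 against 45031 to 67418). Basal keratinocyte markers, 2 of 7 of them lower, had sums of 213781 to 332707 and 182614 to 353841. Differentiated and stress keratinocyte markers, 1 of 8 tested higher, had sums of 323439 to 498355 and 241092 to 591018. Both ranges overlapped between the groups, but the latter was split within Zfp36ΔARE skin. Replicates 1 to 3 had 267674, 241092 and 248807, below every WT library, and replicates 4 and 5 had 591018 and 446071. Y-linked transcripts, 3349 to 4262 counts, were present in Zfp36ΔARE replicates 2 to 5 and at most 1 count was found in each of the other 6 libraries, and apart from Zfp36ΔARE replicate 1 the sex of the animals cannot be told apart from their genotype.

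Of the 10 genes, 6 were higher (Gclc, Gclm, Txnrd1, Srxn1, Slc7a11 and Gsr), 1 was lower (Nqo1) and 3 did not pass the test (Nfe2l2, Keap1 and Hmox1) at the threshold of 0.05 on edgeR's adjusted p, corrected over all tested genes. Over all 15543 genes, 34.3% passed in either direction, 15.3% as higher and 19.1% as lower. Only Slc7a11 also changed by more than 2-fold, which 8.31% of all genes did. The groups had no overlapping values in 4 of the 10 genes, Gclc, Txnrd1 and Slc7a11 upwards and Nqo1 downwards, and in 23.1% of all genes. The median log2 fold change of the 10 genes was 0.46, against 0.01 for all tested genes.

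**Figure D1:**
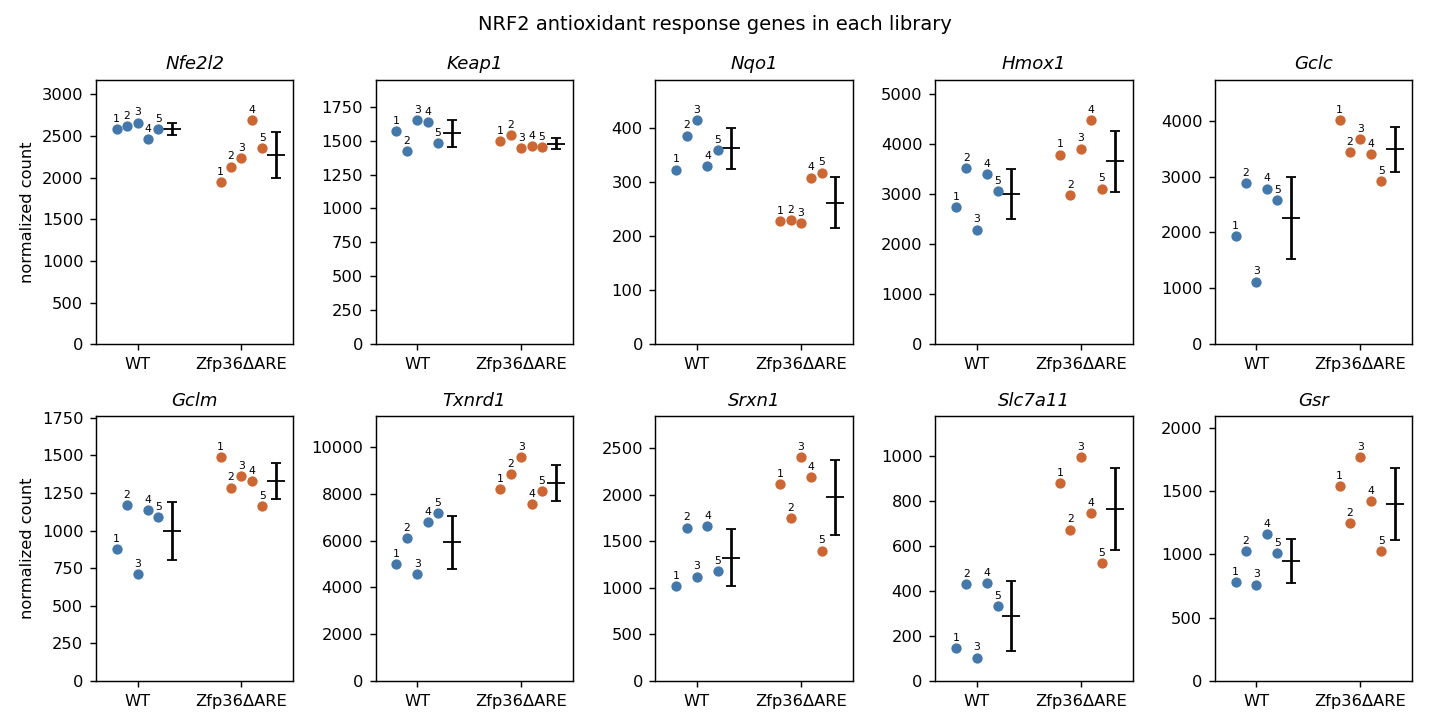
Normalized count (vertical axis, from 0) of each of the 10 genes in each library, WT in blue and Zfp36ΔARE in orange, with the replicate number at each point and the mean ± SD in black (n = 5 per group). Slc7a11, Gclc and Txnrd1 lay higher in all Zfp36ΔARE libraries than in any WT library and Nqo1 lower, while WT replicates 1 and 3 were the lowest WT libraries for Hmox1, Gclc, Gclm, Txnrd1, Srxn1, Slc7a11 and Gsr.

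Per transcript length, the most abundant of the 10 in WT skin was Hmox1 at 71.3 ± 11.9 FPKM (fragment counts scaled for gene length and library size, SD, n = 5), followed by Txnrd1 at 55.3 ± 10.6, and these overlapped in their spread. Nfe2l2 at 25.3 ± 0.71 and Gclc at 24.7 ± 8.06 came next and did not differ beyond their spread. Gclm at 18.0 ± 3.54 and Srxn1 at 17.7 ± 4.06 FPKM were also alike within their spread, as were Gsr at 13.3 ± 2.41 and Keap1 at 13.0 ± 0.82. Nqo1 at 8.76 ± 0.93 FPKM was next to last and Slc7a11 at 1.17 ± 0.63 was the lowest of the set. In Zfp36ΔARE skin Hmox1 at 86.8 ± 14.7 and Txnrd1 at 79.0 ± 7.28 FPKM were still the most abundant, Gclc came next with 38.2 ± 4.36, and Slc7a11 at 3.10 ± 0.74 and Nqo1 at 6.32 ± 1.14 were again the lowest.

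Slc7a11 (Entrez 26570, chromosome 3, 49892526 to 50443614, minus strand, 12 exons in its transcript) encodes xCT, the exchanger that imports cystine for glutathione synthesis. Its normalized counts were 146, 431, 104, 433 and 332 in WT replicates 1 to 5 and 877, 672, 995, 746 and 522 in Zfp36ΔARE replicates 1 to 5. Every Zfp36ΔARE library lay above every WT library, and WT replicates 1 and 3 lay below the other WT libraries. This is a 2.63-fold difference, or 1.40 on the log2 scale (SE 0.38, adjusted p = 0.020). Its lowest raw count was 85, in WT replicate 3.

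Gclc (Entrez 14629, chromosome 9, 77754535 to 77794485, plus strand, 16 exons) encodes the catalytic subunit of glutamate-cysteine ligase, the rate-limiting enzyme of glutathione synthesis. It had 1937, 2888, 1119, 2784 and 2574 normalized counts in WT and 4010, 3438, 3668, 3407 and 2919 in Zfp36ΔARE skin. The groups did not overlap, but WT replicate 2 and Zfp36ΔARE replicate 5 differed by little. With a log2 fold change of 0.63 (SE 0.22) it only just passed the test (adjusted p = 0.0498).
Gclm (Entrez 14630, chromosome 3, 122245557 to 122270732, plus strand, 7 exons) encodes the modifier subunit of the same enzyme. Its normalized counts were 879, 1171, 711, 1136 and 1089 in WT and 1490, 1286, 1363, 1331 and 1162 in Zfp36ΔARE skin. The groups overlapped only in that Zfp36ΔARE replicate 5 lay below WT replicate 2. On the log2 scale the difference was 0.41 (SE 0.13, adjusted p = 0.036).
Gsr (Entrez 14782, chromosome 8, 33652523 to 33698163, plus strand, 13 exons) encodes glutathione reductase, which returns oxidized glutathione to its reduced form with NADPH. It had 780, 1027, 761, 1161 and 1008 normalized counts in WT and 1542, 1248, 1772, 1423 and 1025 in Zfp36ΔARE skin. Zfp36ΔARE replicate 5 lay within the WT range and the other 4 above it. The difference was 0.57 on the log2 scale (SE 0.16, adjusted p = 0.023).

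Txnrd1 (Entrez 50493, chromosome 10, 82833951 to 82897712, plus strand, 14 exons) encodes cytosolic thioredoxin reductase. Its normalized counts were 4982, 6119, 4571, 6809 and 7194 in WT and 8193, 8866, 9591, 7562 and 8120 in Zfp36ΔARE skin. All 5 Zfp36ΔARE libraries lay above all 5 WT libraries, with a log2 fold change of 0.51 (SE 0.13, adjusted p = 0.016), the smallest adjusted p of the 10 genes.
Srxn1 (Entrez 76650, chromosome 2, 152105516 to 152111376, plus strand, 2 exons) encodes sulfiredoxin, which repairs overoxidized peroxiredoxins. It had 1022, 1646, 1120, 1661 and 1176 normalized counts in WT and 2114, 1749, 2408, 2186 and 1399 in Zfp36ΔARE skin. Zfp36ΔARE replicate 5 again fell among the WT libraries. Its log2 difference was 0.57 (SE 0.18, adjusted p = 0.032). Replicate 5 was the lowest Zfp36ΔARE library for Gclc, Gclm, Srxn1, Slc7a11 and Gsr.

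Nqo1 (Entrez 18104, chromosome 8, 107388225 to 107403206, minus strand, 6 exons) encodes NAD(P)H quinone dehydrogenase 1, a 2-electron reductase of quinones and a widely used NRF2 target. It was the only target that was lower. Its normalized counts were 323, 386, 415, 330 and 359 in WT and 229, 230, 224, 308 and 318 in Zfp36ΔARE skin. All Zfp36ΔARE libraries lay below all WT libraries, by little for replicates 4 and 5. Its log2 fold change was -0.47 (SE 0.13, adjusted p = 0.021).

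The regulators did not pass the test. Nfe2l2 (Entrez 18024, chromosome 2, 75675513 to 75704641, minus strand, 5 exons) had 2582, 2617, 2661, 2465 and 2586 normalized counts in WT and 1950, 2132, 2239, 2692 and 2354 in Zfp36ΔARE skin, a log2 fold change of -0.18 (SE 0.079, adjusted p = 0.091). Of the Zfp36ΔARE libraries, 4 lay below all WT libraries and replicate 4 above them. Keap1 (Entrez 50868, chromosome 9, 21229730 to 21239361, minus strand, 6 exons) had 1553 ± 97.9 and 1478 ± 40.1 normalized counts (SD, n = 5 each), with a log2 fold change of -0.07 (SE 0.054, adjusted p = 0.32). NRF2 is regulated mainly through its protein, which was not measured here. In the annotation, Keap1 shares 510 exonic bases with the antisense gene Gm16754, and Gclm shares 296 with Gm17494 on the other strand and 244 with Gm6061 on the same strand. The sources used here do not say if strand was used in counting, so reads from these partners cannot be told apart.

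**Figure D2:**
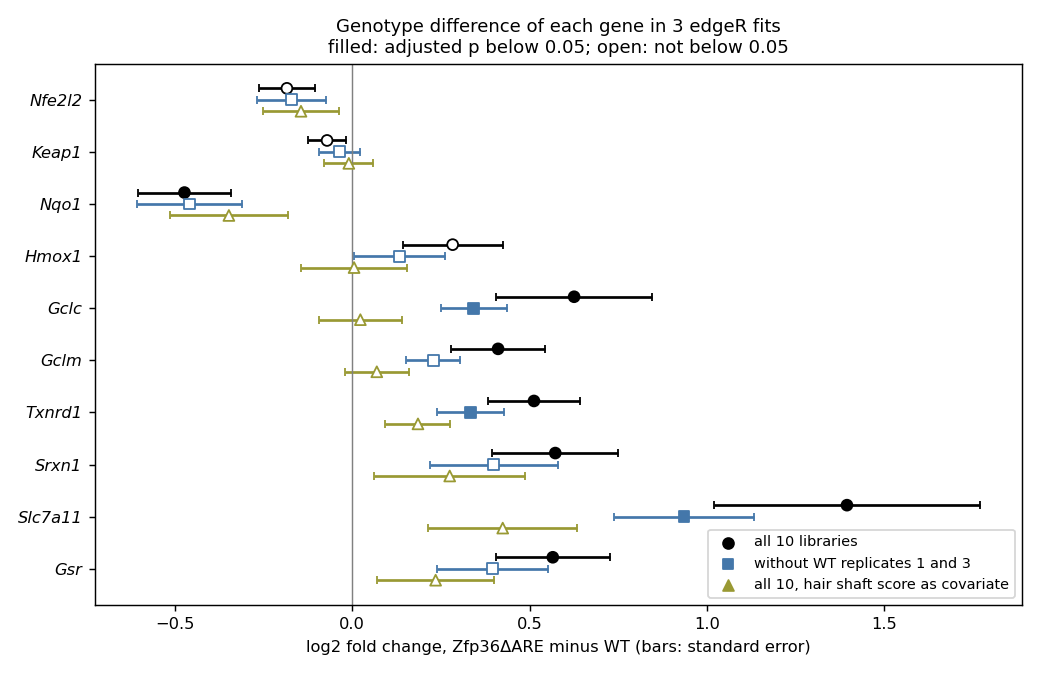
Log2 fold change of Zfp36ΔARE against WT (horizontal axis, bars show the standard error) for the 10 genes in 3 edgeR fits, all 10 libraries (black circles), without WT replicates 1 and 3 (blue squares) and all 10 with the hair shaft score as a covariate (olive triangles), filled where the adjusted p was below 0.05. Each gene kept its sign in the 3 fits, with 7, 3 and 0 genes filled.

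The levels of most target genes moved with hair shaft transcripts. The hair shaft score, the mean log2(CPM + 1) of the 9 hair genes, was 5.34, 8.05, 2.48, 8.50 and 8.44 in WT and 9.61, 9.93, 10.7, 9.56 and 9.20 in Zfp36ΔARE replicates 1 to 5, so the groups did not overlap. WT replicates 3 and 1, with the lowest scores, were also the lowest WT libraries for 7 of the 8 target genes. For Nqo1, WT replicate 3 was the highest of all libraries (415) and WT replicate 1 the lowest WT library (323). Replicates 3 and 1 of WT also had the highest sums of skeletal muscle markers (1305000 and 673052, others at most 560079) and adipocyte markers (201397 and 127844, others at most 96720). Whether the low values go with hair, muscle or fat transcripts was not tested. Without these 2 libraries, 3 of the 10 genes passed, all higher: Gclc (log2 fold change 0.34, SE 0.092, adjusted p = 0.037), Txnrd1 (0.33, SE 0.094, adjusted p = 0.043) and Slc7a11 (0.94, SE 0.20, adjusted p = 0.019, now under 2-fold). Nqo1 then had a log2 fold change of -0.46 (SE 0.15, adjusted p = 0.064), close to its value in all libraries. With the hair shaft score as a covariate, 0 of the 10 passed in edgeR (0 at an unadjusted p below 0.05, smallest adjusted p = 0.37). Log2 fold changes were then 0.42 for Slc7a11, 0.02 for Gclc and -0.35 for Nqo1. In that fit 39 of all 15543 genes passed. Since the groups do not overlap in the score, hair shaft content and genotype cannot be told apart in these libraries.

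**Figure D3:**
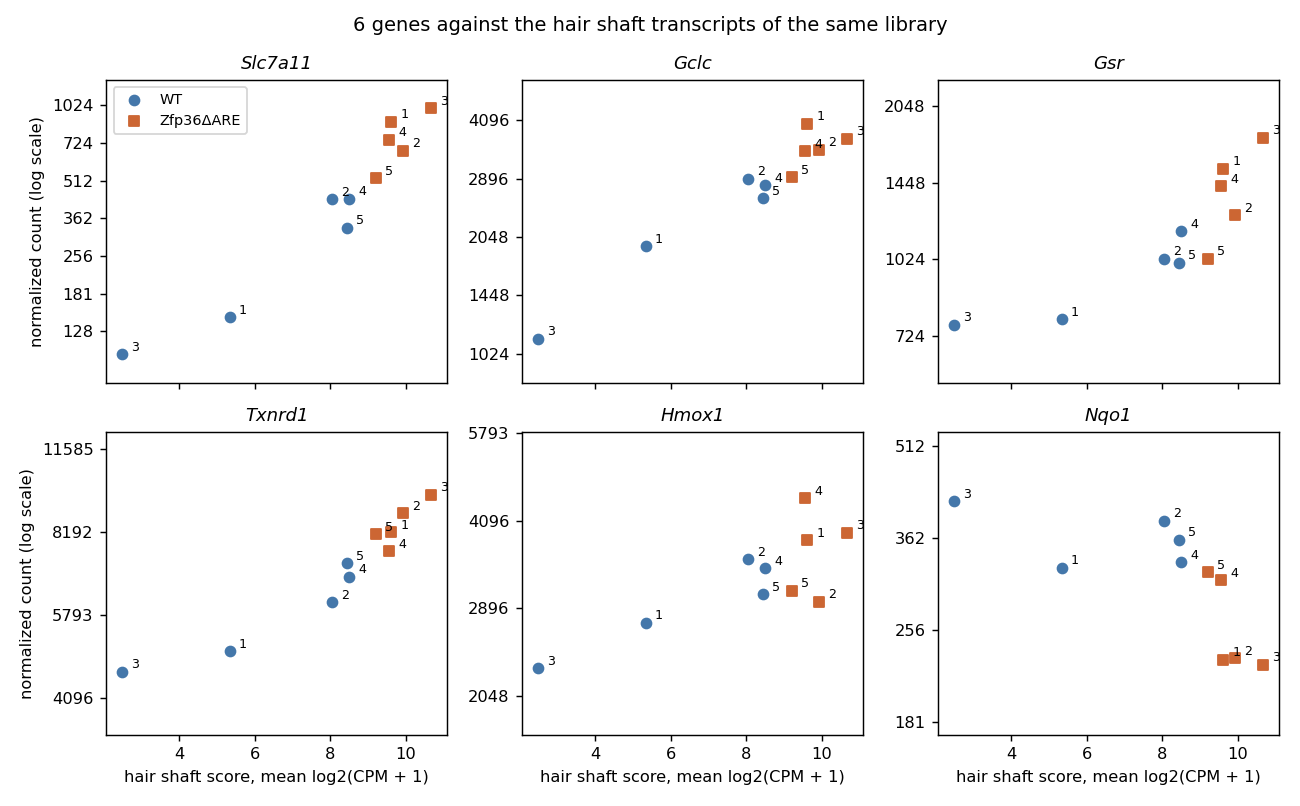
Normalized count (vertical axis, log scale) of 6 of the 10 genes against the hair shaft score of the same library (horizontal axis, mean log2(CPM + 1)), WT as blue circles and Zfp36ΔARE as orange squares, with replicate numbers. WT replicates 3 and 1 stand apart at scores of 2.48 and 5.34, where Slc7a11, Gclc, Gsr, Txnrd1 and Hmox1 were lowest. Nqo1 was highest in WT replicate 3, while replicate 1 was its lowest WT library. These libraries also had the highest skeletal muscle and adipocyte marker sums.

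Hmox1 (Entrez 15368, chromosome 8, 75093621 to 75100589, plus strand, 5 exons) encodes heme oxygenase 1, which breaks heme down to biliverdin, iron and carbon monoxide. It is an NRF2 target in many cells and is also strongly expressed by macrophages that take up hemoglobin. Its normalized counts were 2735, 3515, 2287, 3394 and 3063 in WT and 3788, 2972, 3907, 4475 and 3107 in Zfp36ΔARE skin. The groups overlapped, with Zfp36ΔARE replicates 2 and 5 inside the WT range, and the log2 fold change was 0.28 (SE 0.14, adjusted p = 0.14). The 14 macrophage markers had a median log2 fold change of -1.37. Csf1r, the receptor for a macrophage growth factor, went from 4715 ± 1325 to 1663 ± 408 normalized counts (log2 fold change -1.50, SE 0.22, adjusted p = 0.0045), and Cd163, the receptor for hemoglobin bound to haptoglobin, from 2840 ± 1035 to 1140 ± 182 (log2 fold change -1.32, SE 0.25, adjusted p = 0.0072, SD, n = 5 each).

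The log2 ratio of Hmox1 to Csf1r was -0.95, -0.70, -1.36, -0.07 and 0.01 in WT replicates 1 to 5 and 1.27, 1.29, 1.48, 1.05 and 0.61 in Zfp36ΔARE replicates 1 to 5. These ratios are of CPM values not scaled for gene length, so they are read between libraries and not as which gene is more abundant. All Zfp36ΔARE libraries lay above all WT libraries, and the means differed by 1.75 (p = 0.00794 by an exact two-sided permutation test, which is the lowest value possible with 5 libraries against 5, and 0.0119 after Benjamini-Hochberg adjustment over 3 ratios). The ratio of Hmox1 to Cd163 ran from -0.74 to 1.01 in WT and from 1.22 to 1.89 in Zfp36ΔARE skin, also without overlap, a difference of 1.51 (exact two-sided permutation test, p = 0.00794, adjusted p = 0.0119). Csf1r and Cd163 were themselves lower without overlap and were chosen with earlier results of these data known. Both ratios carry that fall, so their p-values are not a separate test of Hmox1. Against Nqo1, the ratio ran from 2.39 to 3.26 in WT and from 3.19 to 3.97 in Zfp36ΔARE skin, with Zfp36ΔARE replicate 5 below WT replicate 4. The means differed by 0.72 (exact two-sided permutation test, p = 0.0159, adjusted p = 0.0159). Nqo1 was itself lower without overlap (log2 fold change -0.47), so this p-value is not a separate test of Hmox1 either. Hmox1 was therefore higher relative to each of these transcripts, all lower in Zfp36ΔARE skin, while its own change did not pass the test. Without WT replicates 1 and 3 the difference to Nqo1 was 0.55 and no longer passed (exact two-sided permutation test, adjusted p = 0.0536), while those to Csf1r and Cd163 were 1.39 and 1.06 (adjusted p = 0.0268 each). Nqo1 was the only target gene that was lower. The log2 fold change of Hmox1, 0.28, was below those of the remaining targets. These were Gclm (0.41), Txnrd1 (0.51), Gsr (0.57), Srxn1 (0.57), Gclc (0.63) and Slc7a11 (1.40).

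**Figure D4:**
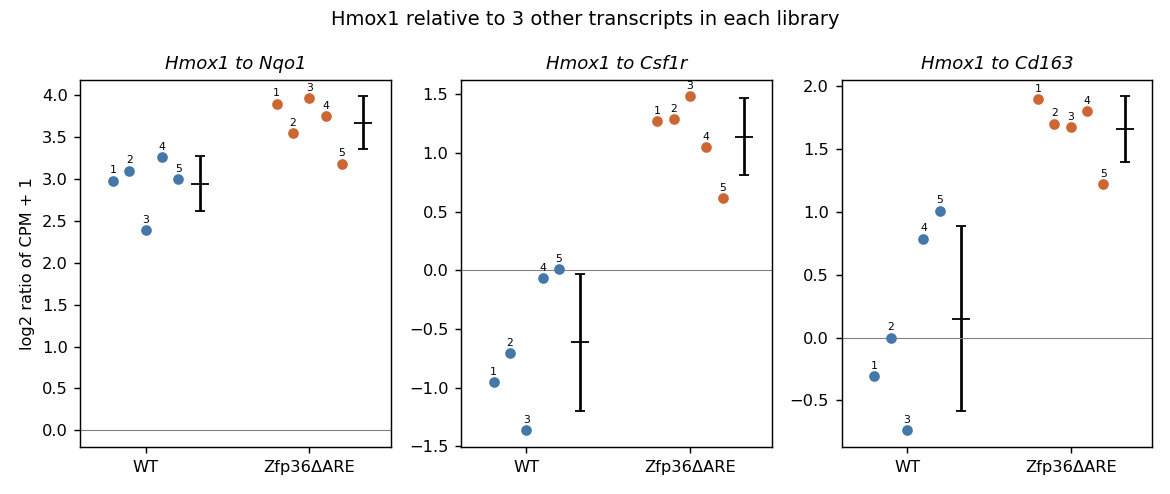
Log2 ratio of Hmox1 to Nqo1, Csf1r and Cd163 (vertical axes, from CPM + 1) in each library, WT in blue and Zfp36ΔARE in orange, with replicate numbers and mean ± SD in black (n = 5 per group). The groups did not overlap for Csf1r and Cd163, and for Nqo1 only Zfp36ΔARE replicate 5 lay within the WT range.

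The other genes of the pathway, 71 genes in 6 lists, were lower more often than higher. Of the 70 in the count table, 68 were tested, and 9 were higher, 24 lower and 35 not called, and their log2 fold changes had a median of -0.23. The heme and iron list holds Cd163, which is also one of the macrophage markers, and without it 67 were tested, with 9 higher and 23 lower. Over all genes, 15.3% were higher and 19.1% lower. Without WT replicates 1 and 3, 17 passed, 5 higher and 12 lower. Among those named below, Prdx2, Txnip, Cat, Sod3, G6pdx, Gstm1, Lrp1, Fth1, Ftl1, Slc40a1 and Tfrc still passed, while Mafg, Btrc, Slc3a2, Chac1, Gss, Gpx3, Gpx1, Gpx4, Sod1, Taldo1, Idh1, Mgst1, Ephx1 and Ugdh did not. Ggt1 passed in that fit (log2 fold change 0.66, adjusted p = 0.0067). The macrophage, muscle, adipocyte and hair shaft transcripts given above differ between the same groups, and their part in these values was not tested.

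Among 9 NRF2 regulators, 1 was higher, 1 lower and 7 not called. Mafg, a small MAF partner of NRF2, was slightly higher in every Zfp36ΔARE library than in any WT library, 839 ± 35.9 against 946 ± 46.3 normalized counts (SD, n = 5 each, log2 fold change 0.17, SE 0.055, adjusted p = 0.035). Btrc, which encodes a ubiquitin ligase adaptor that acts on NRF2 independently of KEAP1, was lower, 488 ± 89.2 against 355 ± 35.6 normalized counts (log2 fold change -0.46, SE 0.12, adjusted p = 0.020), with WT replicate 3 at 639 and the other WT libraries at 420 to 481. The rest did not pass: the ligase parts Cul3 (-0.14) and Rbx1 (0.10), the repressor Bach1 (-0.08), the autophagy adaptor Sqstm1 (-0.28), the related factor Nfe2l1 (-0.23) and the small MAF genes Mafk (0.00) and Maff (0.36) are given as log2 fold changes.

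Among 9 other genes of glutathione synthesis and use, 3 were higher, 3 lower and 3 not called. Slc3a2, which encodes the heavy chain that pairs with xCT, rose from 5124 ± 1326 to 7228 ± 827 normalized counts (log2 fold change 0.50, SE 0.18, adjusted p = 0.0496). Chac1, which degrades glutathione, rose from 1533 ± 1147 to 5302 ± 2459 (log2 fold change 1.79, SE 0.60, adjusted p = 0.043), with a wide spread in both groups. Gss, which encodes glutathione synthetase, was also higher (log2 fold change 0.41, adjusted p = 0.029). Of the glutathione peroxidases, which spend glutathione on peroxides, Gpx3 fell by 0.97 and Gpx1 by 0.43 on the log2 scale (adjusted p = 0.030 and 0.042), and Gpx4, which acts on lipid peroxides, had a log2 fold change of -0.35 (adjusted p = 0.041). The groups overlapped for each of these peroxidases. Gpx1 in Zfp36ΔARE replicate 4 (6050 normalized counts) lay inside the WT range of 5196 to 6323. Ggt1, which breaks down extracellular glutathione, had a log2 fold change of 1.03 and did not pass (adjusted p = 0.056), although its groups did not overlap.

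In the thioredoxin, peroxiredoxin and superoxide list, 1 of 15 genes was higher and 4 were lower. Prdx2, a cytosolic peroxiredoxin, rose from 7114 ± 1094 to 9627 ± 513 normalized counts (log2 fold change 0.44, SE 0.11, adjusted p = 0.014), without overlap. Catalase (Cat) fell by 0.76, the copper-zinc superoxide dismutase Sod1 by 0.54 and the thioredoxin inhibitor Txnip by 0.90 on the log2 scale (adjusted p = 0.0077, 0.024 and 0.012), and the extracellular dismutase Sod3 had a log2 fold change of -1.16 (adjusted p = 0.0068). Prdx1, often listed as an NRF2 target, had a log2 fold change of -0.19 (adjusted p = 0.056). NADPH supply, on which Gsr, Txnrd1 and Nqo1 depend, was mixed: G6pdx, the first enzyme of the pentose phosphate pathway, rose from 5030 ± 907 to 7264 ± 813 (log2 fold change 0.53, SE 0.13, adjusted p = 0.014) and Taldo1 by a log2 fold change of 0.29 (adjusted p = 0.022), Idh1 fell by 0.27 (adjusted p = 0.044, with WT replicate 1 at 4977 and the other WT libraries at 4129 to 4295), and 3 of the 6 were not called.

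In the list of conjugation and carbonyl detoxification, the functions closest to that of Nqo1, 0 of 18 tested genes were higher, 9 were lower and 9 were not called by edgeR, with a median log2 fold change of -0.38. Gstm1, a glutathione S-transferase, fell from 2586 ± 762 to 1500 ± 118 normalized counts (log2 fold change -0.79, SE 0.17, adjusted p = 0.0095), without overlap. The microsomal transferase Mgst1 fell by 0.32, the epoxide hydrolase Ephx1 by 0.33 and Ugdh, which makes the donor for glucuronidation, by 0.29 on the log2 scale (adjusted p = 0.037, 0.013 and 0.022), and Ugdh had 2102 normalized counts in WT replicate 1 against 1556 to 1711 in the other WT libraries. Values of the Gsta, Gstm and Gstp families are uncertain, because how reads shared by near-identical members were counted is not given in the sources used here. In the heme and iron list, which adjoins Hmox1, 2 of 11 genes were higher and 6 lower. The ferritin chains Fth1 and Ftl1, which store the iron that heme oxygenase releases, fell by 0.76 and 0.78 on the log2 scale (adjusted p = 0.0096 and 0.0093). Slc40a1, the iron exporter ferroportin, rose from 3921 ± 1996 to 8681 ± 1290 normalized counts (log2 fold change 1.15, SE 0.36, adjusted p = 0.033), and Lrp1, a receptor that clears heme bound to hemopexin, fell by 0.48 (adjusted p = 0.0067). Tfrc, the transferrin receptor that imports iron, was also higher (log2 fold change 0.71, adjusted p = 0.0066). Gss, Gpx4, Sod3 and Tfrc were named after their values were seen. Hmox2, the constitutive heme oxygenase, had a log2 fold change of -0.01 (adjusted p = 0.95).

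**Figure D5:**
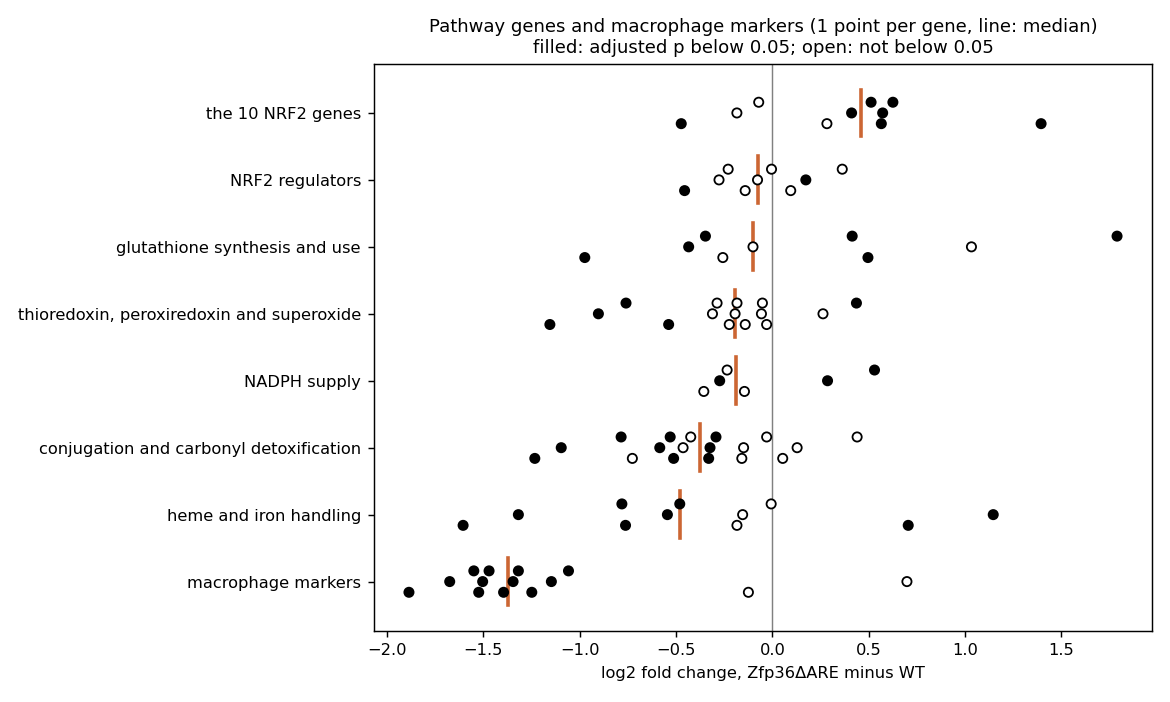
Log2 fold change of Zfp36ΔARE against WT (horizontal axis) for the 10 NRF2 genes, the 6 pathway lists and the macrophage markers, 1 point per tested gene, filled where the adjusted p was below 0.05, with the median of each list as an orange line. The medians run from 0.46 for the 10 genes to -1.37 for the macrophage markers, with 12 of 14 macrophage markers filled.

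In the fit on libraries without Y-linked counts, 5 WT against Zfp36ΔARE replicate 1 alone, the lone library is assumed to vary like the others. There 0 of the 10 genes passed in edgeR (4 at an unadjusted p below 0.05, smallest adjusted p = 0.30), and 0 of all 16373 genes did. All 10 log2 fold changes had the sign they had in all libraries, among them 1.60 for Slc7a11, 0.83 for Gclc, 0.70 for Gsr and -0.66 for Nqo1. Leaving out each library in turn, Slc7a11 (log2 fold change 1.19 to 1.59) and Txnrd1 (0.43 to 0.59) passed every time, while Gclc was lost in 7 of the 10 fits, Srxn1 in 6, Gclm in 5, Gsr in 2 and Nqo1 in 1. The count of the 10 genes called fell to 3 without WT replicate 1 or without Zfp36ΔARE replicate 3, and to 4 without Zfp36ΔARE replicate 1 or 2. Without Zfp36ΔARE replicate 4, Nfe2l2 passed as lower (log2 fold change -0.25, adjusted p = 0.022).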

How the data were processed

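RNA-Seq libraries of 5 WT and 5 Zfp36ΔARE skin samples were analysed from the gene counts that the authors deposited without normalization, with a gene length column. Per the study's methods and the labels, the authors dropped reads whose mean quality was below 20, mapped the others to mm10 with STAR 2.5.2b and counted fragments with featureCounts (Subread 1.5.0-p1). In R 4.3.3, edgeR 4.0.16 was run on these counts with TMM factors, filterByExpr and a robust quasi-likelihood fit on genotype alone. P-values were adjusted over all tested genes by Benjamini-Hochberg. Alternatives used DESeq2 1.42.0 and limma-voom (limma 3.58.1). Normalized counts are counts divided by TMM-scaled depth and brought to the average depth, and FPKM divides them by gene length. Ratios used log2(CPM + 1) and exact two-sided permutation tests. The 2 rows that name no gene (7.38e-05% of counts) were left out. The procedure was tested on simulated data. The genes and lists were chosen with earlier results of these data known. Named pathway genes were all regulators and, per other list, up to 4 called and 2 uncalled genes with the most counts.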

Additional observations from a re-analysis of the deposited data

Results flagged for a closer look

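Of 108 groups of 5 libraries examined, 3 held a library far from the other 4 by Dixon's test, where chance gives about 5.4. Btrc had 639 normalized counts in WT replicate 3, against 420 to 481 in the other WT libraries (gap over range 0.723). Idh1 had 4977 in WT replicate 1 against 4129 to 4295 (0.804), and Ugdh had 2102 in WT replicate 1 against 1556 to 1711 (0.716). None of the 10 NRF2 genes had such a library, but WT replicates 1 and 3 are the libraries with the lowest hair shaft scores. They also have the highest skeletal muscle and adipocyte marker sums.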

How the results depend on the processing

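No gene of the 10 changed sign under any alternative. Against 7 of the 10 and 33 pathway genes called (9 higher, 24 lower), DESeq2, limma-voom, DESeq2 size factors, upper-quartile scaling, no filter on low counts, a minimum of 10 counts and thinning to the smallest library kept each count within 1.5 times; Gclc did not pass without the filter (adjusted p = 0.066) or after thinning (0.054). Without WT replicates 1 and 3, 3 of the 10 passed (3 higher, 0 lower, 0 over 2-fold) and 17 pathway genes (5 higher, 12 lower). With the hair shaft score as a covariate, 0 of the 10 and 0 pathway genes passed (14 pathway genes at an unadjusted p below 0.05, smallest adjusted p = 0.069), and likewise 0 and 0 (19 pathway genes at an unadjusted p below 0.05) among libraries without Y-linked counts; the groups do not overlap in the hair shaft score, and the last fit has 1 Zfp36ΔARE library. Leaving out 1 library at a time, 3 to 7 of the 10 passed (2 to 6 higher, 0 to 2 lower, 1 over 2-fold throughout) and 19 to 33 pathway genes (3 to 11 higher, 16 to 24 lower), with 19 without WT replicate 1 and 20 without Zfp36ΔARE replicate 2. The Hmox1 ratios differed by 0.58 to 0.85 for Nqo1, 1.57 to 1.91 for Csf1r and 1.28 to 1.72 for Cd163 (adjusted p from 0.0119 to 0.0238 by exact permutation). Without WT replicates 1 and 3 the difference to Nqo1 was 0.55 (exact adjusted p = 0.0536).

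Shared replicate numbers gave no sign of pairs, since deviations of same-numbered libraries correlated at -0.108, -0.192, -0.145, 0.0851 and -0.165. These values do not settle whether libraries were paired, for example by litter. With the replicate block, 0 of the 10 passed in edgeR (0 higher, 0 lower, 0 over 2-fold, 7 at an unadjusted p below 0.05, smallest adjusted p = 0.053) and 19 pathway genes (2 higher). The 3 Hmox1 ratios under the replicate block kept their differences of 0.72, 1.75 and 1.51, each at an exact p = 0.0625, the smallest that 5 pairs allow. At these depths no gene of the 10 had fewer than 85 counts in a library.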

Other observations

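Within the Zfp36ΔARE libraries, Nqo1 fell into a lower set, replicates 1 to 3 (224 to 230 normalized counts), and a higher pair, replicates 4 and 5 (308 and 318). Some differentiation and pathway genes, picked after their values were seen, split the same way. Krt1, a keratin of suprabasal keratinocytes, had 41387, 45381 and 50550 normalized counts in replicates 1 to 3 and 164999 and 150694 in replicates 4 and 5, against 76967 to 135788 in WT. Krt10, its partner, had 82172, 93708 and 87390 against 168085 and 178061. Cbr3, a carbonyl reductase listed as an NRF2 target, had 355, 324 and 328 against 586 and 509, with WT between 564 and 652. Akr1b8, of the same list, had 253, 299 and 269 against 607 and 429. Gpx1 had 3639, 3567 and 3546 against 6050 and 4511, and Glrx 1772, 1509 and 1527 against 3537 and 2842. Nfe2l2 was also highest of this group in replicates 4 and 5 (2692 and 2354, against 1950 to 2239). Other genes went the opposite way, and Gclc (3407 and 2919) and Txnrd1 (7562 and 8120) were lowest of this group there. Zfp36ΔARE replicate 1 lacked Y-linked counts and replicates 2 to 5 had them, so this split does not follow the Y-linked transcripts. Replicates 4 and 5 were also the Zfp36ΔARE libraries with the fewest counts (21016285 and 19595035). They had the lowest hair shaft scores (9.56 and 9.20) of that group. Their scores for macrophage markers, formed in the same way, were its highest (4.96 and 4.87). The part of these differences in the split was not tested. No test was run on the split, since the libraries were set apart by their values of Nqo1 and of these other genes.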
